A study of Homo sapiens with 4 samples.

Results

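The genes described are 8 Toll-like receptor genes (TLR1, TLR2, TLR4, TLR5, TLR6, TLR7, TLR8 and TLR9), LY96, which encodes the TLR4 partner MD-2, and MYD88, the adaptor shared by nearly the whole receptor family. They were taken by name: each of the 10 genes is the symbol of exactly 1 probe set of the array, among 18093 genes named by a probe set with a single symbol. Of these genes, 13054 read above the median of all 53617 probe sets (3.08 on the log2 scale) in at least 1 array and are the tested genes below. TLR1, TLR2, TLR4, TLR5, TLR6, TLR9 and MYD88 are among them, whereas TLR7, TLR8 and LY96 read below that median in all 4 arrays.

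The arrays come from MV4-11, an established cell line grown from a human acute myeloid leukaemia of monocytic type that carries a KMT2A-AFF1 fusion. Cells carried a hairpin RNA against luciferase (control) or 1 of 3 hairpins against RUNX1, a transcription factor of blood development, labelled moderate, profound 1 and profound 2. All 4 cultures, the control included, had 3 µM doxycycline for 24 h, and RNA of each was hybridised to 1 whole-transcript array. The values are log2 signals from the authors' robust multi-array averaging (RMA), in which a difference of 0.58 is 1.5-fold. With 1 array per hairpin there is no replicate check and no test was made. Differences are described by their size, beside the share of all tested genes that differ as much.

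Toll-like receptors are membrane proteins that bind molecules typical of microbes. Those for bacterial lipoproteins, lipopolysaccharide and flagellin act at the cell surface, and those for nucleic acids act in endosomes. A bound receptor pairs its inner TIR domains, which recruit MYD88 and the IRAK kinases, and the signal ends in NF-kB, AP-1 and interferon regulatory factors that drive cytokine genes such as TNF. Monocytes and macrophages are the best known users of this pathway.

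Before these genes, the labels were checked. The only probe set for RUNX1, which is shared with LOC100506403, read 4.27 in control, 4.33 in the moderate-labelled array, 4.07 in profound 1 and 4.04 in profound 2. The differences from control were 0.06, -0.19 and -0.22. Each was smaller than the spread of genes at that level in the same pair of arrays (0.22, 0.28 and 0.25). Against the moderate-labelled array, profound 1 was at -0.25 and profound 2 at -0.28, against spreads of 0.28 and 0.27. Both arrays labelled profound thus read lowest. A single shared probe set on 1 array per hairpin cannot settle the labelled depths of knockdown, and the arrays are named by their labels. The spread is the robust SD of the difference between a pair of arrays over tested genes of like level, and it holds noise and real differences together. Titles and genotypes name RUNX1 as the target of all 3 hairpins, whereas the descriptions of both arrays labelled profound mention RUNX2 and RUNX3. Of 11 monocytic and myeloid markers 9 had a probe set, and 8 of these read above the table median in every array. LYZ lay between 11.34 and 11.57, FLT3 between 9.28 and 9.46, and the transcription factor gene SPI1, which encodes PU.1, between 8.58 and 8.65. MPO (5.10 to 5.48) and ITGAM (3.78 to 3.89) were lower. CD14, a defining monocyte marker, read below the table median throughout (2.10 to 2.33). CD68, a lysosomal marker of macrophages, was the 1 marker of the 8 tested past 1.5-fold from control. It read 9.28 in control, 9.14 in the moderate-labelled array, 9.98 in profound 1 and 9.91 in profound 2. Of all tested genes, 2.76% were 1.5-fold higher in profound 1, 1.26% in profound 2 and 0.345% in both. The list summed to linear signals of 5019, 5421, 5673 and 5582 in that order, in which LYZ, as the brightest marker, weighs most. The part of the list in the receptor values was not tested. Profound 1 stood furthest from control: its differences over tested genes had a robust SD of 0.265, against 0.192 for profound 2 and 0.170 for the moderate-labelled array.

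**Figure D1:**
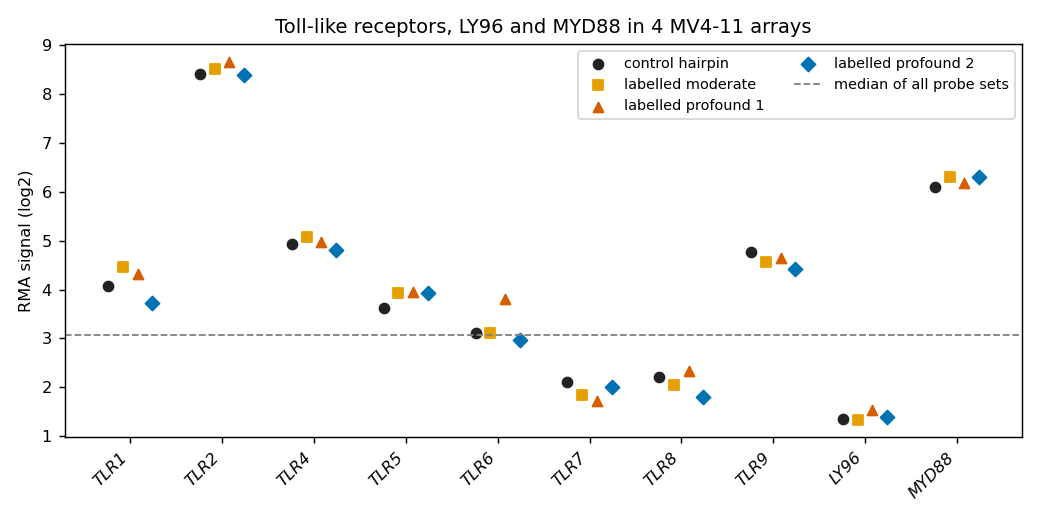
RMA signal (log2, vertical axis) of the 10 genes in the 4 arrays, 1 point per array, with the median of all probe sets (3.08) as a dashed line. TLR7, TLR8 and LY96 lie below the line in all 4 arrays, and the points of TLR1 and TLR6 are the most spread out; levels of different genes come from different probes and are not to be compared.

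TLR2 is the surface receptor that binds bacterial lipoproteins as a dimer with TLR1 or TLR6. TLR2 read 8.40 in control, 8.51 in the moderate-labelled array, 8.66 in profound 1 and 8.38 in profound 2. All 4 arrays were far above the table median and lay within 0.28 of each other. Profound 1 was highest, 0.25 above control against a spread of 0.22 for this pair, and profound 2 was at -0.02.

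TLR6, the partner for diacylated lipopeptides, varied most. TLR6 (probe set 16975226) read 3.11 in control, 3.12 in the moderate-labelled array, 3.82 in profound 1 and 2.96 in profound 2. It was thus high in profound 1 alone, while the other 3 arrays lay close to the table median. The difference between profound 1 and control was 0.71 (1.63-fold) against a spread of 0.27. TLR6 was the 1 gene of the 7 tested that differed by 1.5-fold in this comparison, in which 2.76% of all tested genes were that much higher and 1.32% were at least as far above control as TLR6. The other array labelled profound did not share it: its difference from control was -0.15. Profound 1 was also above the moderate-labelled array, by 0.70. In that comparison 1 of the 7 genes was 1.5-fold higher, against 1.76% of tested genes. As the level is near the floor of RMA, where differences are compressed and noisy, the size of this difference is uncertain.

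TLR1, the partner for triacylated lipopeptides, followed another order. TLR1 (probe set 16975213) read 4.08 in control, 4.46 in the moderate-labelled array, 4.32 in profound 1 and 3.73 in profound 2. The array labelled moderate was highest and profound 2 lowest, a range of 0.72 (1.65-fold). The differences from control were 0.38, 0.24 and -0.34, none of them 1.5-fold, against spreads of 0.22, 0.28 and 0.25. Profound 2 lay 0.72 below the moderate-labelled array. TLR1 was the 1 gene of the 7 that was 1.5-fold lower in that comparison, against 1.72% of tested genes. CD79A, a B cell marker, read 4.20, 4.64, 4.80 and 4.12 in the same arrays, so it too was higher in the moderate-labelled array and profound 1 than in the others. Its partner CD79B did not share this order, with 3.92, 3.80, 4.04 and 4.11, nor did the B cell factor gene PAX5, with 3.24, 3.16, 3.31 and 3.07. The B cell list as a whole (4 of 5 markers with a probe set) summed to linear signals of 47.2 in control, 51.6, 58.3 and 46.7, with MS4A1 below the table median throughout (1.89 to 2.05). Its part in the TLR1 and TLR6 values was not tested.

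TLR1 and TLR6 are close paralogues that neighbour each other on chromosome 4, in the order KLF3, TLR10, TLR1, TLR6 and FAM114A1 among protein-coding genes. Probe sequences were not used here, and the separation of their signals is uncertain. The flanking genes did not share the TLR6 pattern but were not flat. KLF3, a Krüppel-like repressor gene, was at 0.17 in the moderate-labelled array against control, -0.07 in profound 1 and 0.40 in profound 2. FAM114A1 was at 0.66 in the moderate-labelled array, past 1.5-fold, -0.09 in profound 1 and 0.15 in profound 2. TLR10, the receptor between them, read below the table median in all 4 arrays (1.86 in control, 2.11, 2.14 and 2.01).

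TLR4 is the lipopolysaccharide receptor. TLR4 read 4.92 in control, 5.09 in the moderate-labelled array, 4.98 in profound 1 and 4.80 in profound 2. No pair of arrays differed by more than 0.28, and the differences from control (0.16, 0.06 and -0.12) were smaller than the spreads of 0.20, 0.28 and 0.22. LY96 encodes MD-2, the subunit of the receptor that holds lipopolysaccharide. LY96 read 1.35 in control, 1.34 in the moderate-labelled array, 1.53 in profound 1 and 1.40 in profound 2. All 4 values lie far below the table median, and their differences have no interpretable size.

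TLR5 binds flagellin. TLR5 read 3.62 in control, 3.92 in the moderate-labelled array, 3.94 in profound 1 and 3.94 in profound 2. The control array was lowest, and the 3 arrays of RUNX1 hairpins lay within 0.02 of each other. The differences from control were 0.30, 0.32 and 0.32, none of them 1.5-fold, against spreads of 0.22, 0.28 and 0.25. All 3 differences use the same control array, so a low reading of that array and a shared shift cannot be told apart.

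The receptors for nucleic acids act in endosomes. TLR9, which binds DNA with unmethylated CpG, read 4.77 in control, 4.56 in the moderate-labelled array, 4.65 in profound 1 and 4.42 in profound 2. Control was highest and profound 2 lowest, with differences from control of -0.21, -0.12 and -0.35 against spreads of 0.20, 0.28 and 0.22. A list of 4 markers of plasmacytoid dendritic cells, which use TLR7 and TLR9, summed to linear signals of 295 in control, 360, 297 and 261 in the same order. The defining markers CLEC4C and LILRA4 were below the table median in every array. Most of the sum came from the less specific IL3RA (7.13, 7.59, 7.47 and 7.14) and TCF4 (7.15, 7.30, 6.76 and 6.78). Against control these 2 lay in opposite directions in profound 1, at 0.34 and -0.39. The part of the list in the TLR9 values was not tested. TLR7, a receptor for single-stranded RNA, read 2.11 in control, 1.85 in the moderate-labelled array, 1.73 in profound 1 and 2.01 in profound 2. TLR8, its neighbour on the X chromosome, which also binds RNA, read 2.21, 2.05, 2.34 and 1.80 in the same order. Both stayed below the table median. TLR8-AS1, the antisense gene at TLR8, was equally dim (1.76 to 2.25). TLR3, the receptor for double-stranded RNA, which signals without MYD88, was too (1.63 to 1.78).

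MYD88 links the receptors to the IRAK kinases. MYD88 read 6.11 in control, 6.30 in the moderate-labelled array, 6.17 in profound 1 and 6.31 in profound 2. Control was lowest, and the range of 0.20 (1.15-fold) was the smallest of the 7 tested genes. The differences from control were 0.19, 0.07 and 0.20, against spreads of 0.16, 0.28 and 0.18.

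Across the 7 tested genes, no gene was 1.5-fold different between the moderate-labelled array and control, where 1.46% of all tested genes were. The median difference was 0.16, against 0.01 over all tested genes, with 6 of the 7 genes above control. In profound 1 the median was 0.24, with 6 of 7 above control, against -0.00 over all tested genes. In profound 2 it was -0.12, with 2 of 7 above control and no gene 1.5-fold different, where 2.4% of all tested genes were. In both arrays labelled profound with the same sign, 0 of 7 were 1.5-fold different from control (0.682% of tested genes) and 0 of 7 from the moderate-labelled array (0.835%). Measured against the spread of each pair, 4, 3 and 4 of the 7 genes lay beyond it in the moderate-labelled array, profound 1 and profound 2, where between 32.6% and 33.2% of all tested genes did. The 3 comparisons share the control array. With TLR7, TLR8 and LY96 included, the medians over all 10 genes were 0.06, 0.15 and -0.11.

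**Figure D2:**
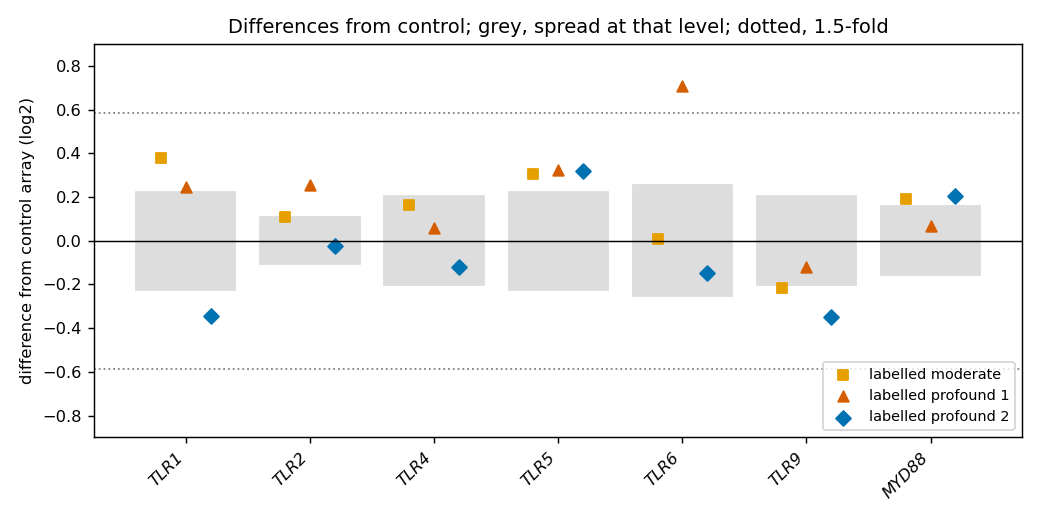
Difference from the control array (log2, vertical axis) of the 7 tested genes for the arrays labelled moderate, profound 1 and profound 2. Grey boxes give the spread between the moderate-labelled array and control for genes of that level. The spreads of profound 1 and profound 2 against control are larger than the boxes (for TLR2, 0.22 and 0.13 against 0.11 drawn). Dotted lines mark 1.5-fold, and TLR6 in profound 1 (0.71) is the only point beyond these lines.

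Both arrays labelled profound were then set against each other, a comparison without the control array. TLR6 was 0.85 higher (1.81-fold) in profound 1 than in profound 2, against a spread of 0.30, and 0.506% of all tested genes were at least as far in that direction. TLR1 was 0.59 higher, just beyond 1.5-fold and against a spread of 0.28, and 2.24% of tested genes were as far. These were 2 of the 7 genes, against 2.28% of all tested genes at 1.5-fold in that direction. Among the others, TLR2 was 0.28 higher, TLR9 0.23 and TLR4 0.18, TLR5 differed by 0.01, and MYD88 was at -0.14. The median was 0.23, against -0.01 over all tested genes.

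**Figure D3:**
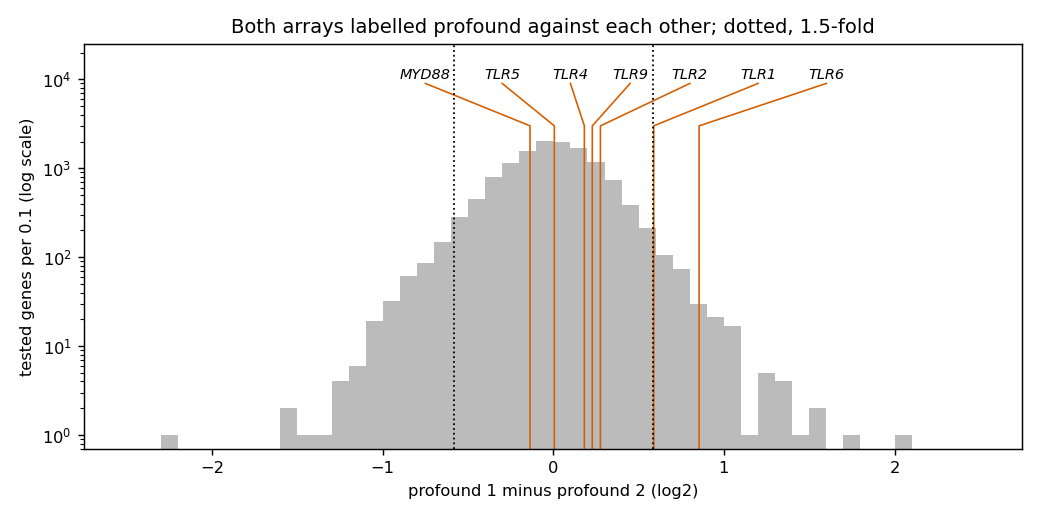
Number of the 13054 tested genes per 0.1 log2 unit (vertical axis, log scale) by the difference between the arrays labelled profound 1 and profound 2 (horizontal axis). Orange lines mark the 7 genes and dotted lines 1.5-fold; TLR6 (0.85) and TLR1 (0.59) lie beyond the line on the higher side.

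For TLR6, the gene with the widest range, the 5 tested genes with the most similar differences from control in the 3 arrays were TPI1P3, WDR19, UBE2Q2P16, MTRNR2L6 and SBF2, at distances of 0.08 to 0.11 log2 units over 4 arrays. WDR19, an intraflagellar transport gene, read 5.07 in control, 5.08 in the moderate-labelled array, 5.76 in profound 1 and 5.02 in profound 2. SBF2, a myotubularin-related gene, read 5.65, 5.59, 6.43 and 5.47 in the same order. TPI1P3, UBE2Q2P16 and MTRNR2L6 are listed as pseudogenes, and signals of such near-copies are uncertain. In all, 96 tested genes (0.735%) lay within 0.3 of TLR6.

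The stretches before the gene starts were searched for the short cores of factors named here, on both strands. RefSeq windows of 250 bases (GRCh38.p14) were found for 7 of the 10 genes (TLR2, TLR4, TLR5, TLR6, TLR8, TLR9 and MYD88). The RUNX core, TGTGGT or TGCGGT, was in 0 of the 7 windows, against 16.3% of 35116 such windows in the genome. The PU.1 core GAGGAA was in 4 of the 7 (TLR4, TLR6, TLR9 and MYD88), against 23.6%. An interferon response core, GAAA repeated after a gap of any 2 bases, was in MYD88 alone, against 3.02%. So few windows cannot be set apart from these shares. The matches are letters, not sites of binding, and binding further away was not examined. The windows are shown for TLR6, which differed most between arrays, TLR4, which held 4 PU.1 cores, and MYD88, which held both a PU.1 and an interferon response core. Capitals mark the PU.1 core on either strand (read as TTCCTC on the opposite strand) and, in MYD88 at 61 bases before the start, the interferon response core.
TLR6, chr4:38856818-38857067, minus strand: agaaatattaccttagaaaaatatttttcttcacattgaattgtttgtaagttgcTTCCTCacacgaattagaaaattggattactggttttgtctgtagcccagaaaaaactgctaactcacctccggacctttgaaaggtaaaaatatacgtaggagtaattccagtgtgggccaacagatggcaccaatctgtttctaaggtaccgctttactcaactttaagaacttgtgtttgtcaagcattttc
TLR4, chr9:117704153-117704402, plus strand: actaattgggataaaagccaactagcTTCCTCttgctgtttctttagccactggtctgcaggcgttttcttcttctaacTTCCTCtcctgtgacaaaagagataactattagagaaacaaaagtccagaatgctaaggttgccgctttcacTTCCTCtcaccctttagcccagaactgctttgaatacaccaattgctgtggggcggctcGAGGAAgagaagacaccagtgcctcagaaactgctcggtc
MYD88, chr3:38138411-38138660, plus strand: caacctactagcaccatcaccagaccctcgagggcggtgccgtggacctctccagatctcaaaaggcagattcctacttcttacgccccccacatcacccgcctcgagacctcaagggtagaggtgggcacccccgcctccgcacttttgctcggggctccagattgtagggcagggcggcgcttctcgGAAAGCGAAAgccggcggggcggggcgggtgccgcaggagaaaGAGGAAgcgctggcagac

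The PU.1 cores of TLR4 begin 224, 171, 99 and 40 bases before the start, that of TLR6 195 bases and that of MYD88 18 bases before it. SPI1 itself, as given above, differed by no more than 0.07 between any of the 4 arrays.

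The partners of the receptors were described next, from a list of 10 co-receptor, binding and trafficking genes of which 9 had a probe set and 7 were tested. LBP, the serum protein that loads lipopolysaccharide, read 2.34 to 2.67, so LBP, CD14 and LY96 were all below the table median. By contrast the CD180 and LY86 pair, a TLR4-like surface receptor and its MD-1 subunit, was bright. CD180 read 9.75 in control, 9.60 in the moderate-labelled array, 9.32 in profound 1 and 9.81 in profound 2. LY86 read 9.07, 9.23, 9.64 and 9.13 in the same order. The values of the pair lay in opposite directions in profound 1, where CD180 was at -0.43 against control and LY86 at 0.57, both short of 1.5-fold. UNC93B1, which carries receptors to endosomes, stayed within 7.11 to 7.28. CNPY3, a receptor chaperone, stayed within 9.51 to 9.60. SLC15A4, an endolysosomal transporter needed for signalling by nucleic acid receptors, read 6.58 in control, 7.19 in the moderate-labelled array, 7.13 in profound 1 and 6.83 in profound 2. It was 0.61 higher in the moderate-labelled array, the 1 gene of the list at 1.5-fold in any comparison with control.

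**Figure D4:**
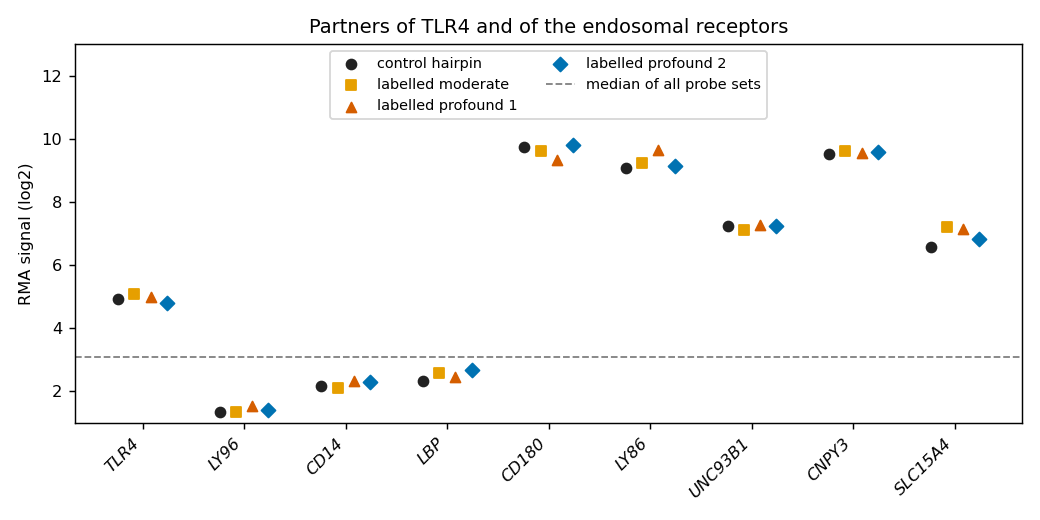
RMA signal (log2, vertical axis) of TLR4, its lipopolysaccharide-binding partners, the CD180 and LY86 pair and genes of receptor trafficking in the 4 arrays, with the median of all probe sets dashed. LY96, CD14 and LBP lie below the line in every array, and CD180 (lowest) and LY86 (highest) stand apart in profound 1.

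In all, 8 lists of 98 genes around the receptors were examined, of which 91 had a probe set and 71 were tested. None is among the 10 genes above. In the moderate-labelled array 2 of the 71 were 1.5-fold higher than control (SLC15A4 and PELI1), against 0.958% of all tested genes. None was lower there, against 0.506%. In profound 1 none was higher, against 2.76%, and 4 were lower (TNF, CCL2, TNFAIP3 and SOCS3), against 4.03%. In profound 2 none was higher, against 1.26%, and 2 were lower (TNF and TNFAIP3), against 1.13%. TNF and TNFAIP3 were the 2 lower in both arrays labelled profound against control (0.337% of tested genes) and against the moderate-labelled array (0.506%). They were already known from these data when the lists were made, so their count is not independent evidence.

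Of the adaptors and proximal kinases, 17 of 21 were tested and 0 differed by 1.5-fold from control in any array, where 1.46%, 6.79% and 2.4% of all tested genes did in the moderate-labelled array, profound 1 and profound 2. So few genes cannot be set apart from such shares. TIRAP, which bridges TLR2 and TLR4 to MYD88, differed most, with 3.28 in control, 3.60 in the moderate-labelled array, 3.73 in profound 1 and 3.42 in profound 2. Of 13 transcription factor genes below the receptors, all were tested and 0 were at 1.5-fold from control, beside the same shares. ATF2, a partner of JUN in AP-1, was furthest, with 8.16 in control, 8.14, 7.63 and 8.22. NFKB1 stayed within 6.96 to 7.05 and IRF8, a monocyte lineage factor, within 10.09 to 10.25.

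Among the inhibitors of the pathway, TNFAIP3, the NF-kB inhibitor A20, read 6.28 in control, 6.32 in the moderate-labelled array, 5.66 in profound 1 and 5.54 in profound 2. Both arrays labelled profound were below both others, at -0.63 and -0.74 against control. SOCS3, a suppressor of cytokine signalling, was at -0.62 in profound 1 and -0.11 in profound 2. PELI1, a ubiquitin ligase of the IRAK complex, was put in this list although its role in the pathway is not only inhibitory. PELI1 read 3.31, 4.05, 3.46 and 3.69, which is 0.74 higher in the moderate-labelled array at a level near the floor. IRAK3, the inactive kinase that restrains the receptors in monocytes, was bright and steady (9.15 to 9.31). Of the 16 genes listed as inhibitors, 15 were tested. At 1.5-fold from control, 1 (PELI1) was higher and 0 lower in the moderate-labelled array. In profound 1, 0 were higher and 2 lower, and in profound 2, 0 were higher and 1 lower. Over all tested genes, 0.958% were higher and 0.506% lower in the moderate-labelled array. In profound 1, 2.76% were higher and 4.03% lower, and in profound 2, 1.26% were higher and 1.13% lower.

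Of 20 cytokine and response genes, 18 had a probe set and 8 of these were below the table median in all arrays, among them IL1A, IL1B and CXCL8. TNF, taken from the brightest of its 8 probe sets, read 7.73 in control, 7.69 in the moderate-labelled array, 6.93 in profound 1 and 6.99 in profound 2. Both arrays labelled profound were below both others, at -0.80 and -0.74 against control. The other TNF probe sets were not compared. CCL2, a monocyte chemokine gene, read 3.71, 3.26, 2.93 and 3.19 in the same order. Its differences from control were -0.45, -0.79 and -0.53, and profound 1 lay below the table median. ICAM1, an adhesion molecule gene, was 0.55 above control in profound 1 and at -0.29 in profound 2. Its difference between both was past 1.5-fold.

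**Figure D5:**
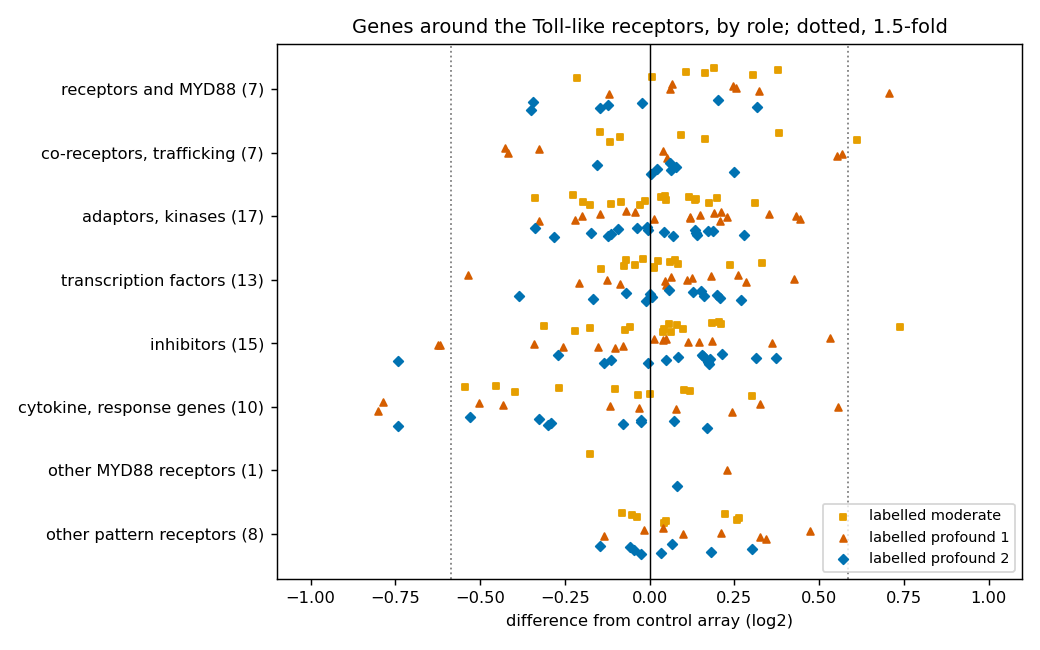
Difference from control (log2, horizontal axis) of each tested gene around the Toll-like receptors, grouped by role with the number of genes in brackets; colours give the arrays and dotted lines mark 1.5-fold. The points beyond the line on the lower side are TNF and TNFAIP3 in both arrays labelled profound, and CCL2 and SOCS3 in profound 1; on the higher side are TLR6 in profound 1 and SLC15A4 and PELI1 in the moderate-labelled array.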

How the data were processed

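Gene expression was measured in 4 cultures of MV4-11 cells, 1 array each, grouped by the genotype label. The deposited values are log2 signals. The submitters' processing notes list RMA, Transcriptome Analysis Console 1.0 and Affymetrix Expression Console 1.3.1. RMA subtracts background, makes the arrays' distributions nearly equal and summarises probes, so a shift of most genes cannot be seen and dim differences are understated. RMA settings and the build were not given in the sources used here. The number of arrays limits the precision. Array medians lay between 3.07 and 3.09, and 0 value columns were left unused.

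Gene symbols were those GEO lists for the platform; 1842 probe sets have several and 27904 none listed. Of the single symbols, 23214 were in the RefSeq table unchanged, 88 were updated by Entrez ID, 565 by synonym and 4 kept. Where a gene had more than 1 probe set, the brightest by mean was used. Left out were genes of small RNAs, immune receptor segments, antisense, predicted and open-reading-frame classes. The spread is the scaled median absolute deviation in 6 level classes, taken for the pair of arrays compared. A gene counts as different at 1.5-fold, in both arrays labelled profound with the same sign. Counting at 1.5-fold was checked on simulated data with the same spread for all genes, that of the moderate-labelled array against control (0.170). Every other pair of arrays had a larger spread, so the check does not cover those pairs. Named genes of each list are those at 1.5-fold in any comparison with control (at most 4), otherwise the furthest; others are named as context after their values were seen. The genes and lists were chosen with earlier results of these data known, and comparisons of single arrays labelled profound with the moderate-labelled array were added afterwards. Calculations used Python 3.11.15, pandas 2.3.3 and limma 3.58.1.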

Additional observations from a re-analysis of the deposited data

How the results depend on the processing

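Alternatives were cyclic loess between arrays, centring of each array on its tested genes, no filter on dim probe sets, a filter on the mean level, the mean of all probe sets of a gene, and 2-fold in place of 1.5-fold. Of 48 recomputed counts of the 7 genes (10 genes without the filter), 42 were unchanged. Of the differences of single genes, 180 of 180 moved by less than the robust SD of their pair over all tested genes. The 30 recomputed medians also did, but without the filter on dim probe sets they were smaller: 0.06 in place of 0.16 for the moderate-labelled array against control, 0.15 in place of 0.24 for profound 1 and 0.04 in place of 0.12 for both arrays labelled profound. The median of both against the moderate-labelled array (-0.02) turned to 0.01 without the filter and to 0.01 after centring. At 2-fold the counts were 0 for profound 1 against control (TLR6 lost), 0 for profound 1 against profound 2 (TLR6 and TLR1 lost), 0 for profound 1 against the moderate-labelled array and 0 for profound 2 against it. Profound 1 against profound 2 left 1 gene, TLR6, after cyclic loess and 1, again TLR6, after centring, since TLR1 lies at the 1.5-fold line. Single-gene differences that changed sign were near 0: TLR6 in the moderate-labelled array (0.01, and -0.03 after centring) and TLR5 between both arrays labelled profound (0.01, and -0.01 after cyclic loess or centring). Each of the 10 genes has 1 probe set, so the choice of probe set could not move it. The totals above still hold 8 counts, 6 medians and 60 single-gene differences from that setting. The filter on the mean level kept the same 7 genes with the same values, so its 8 counts and 6 medians could not move either. Centring shifted the moderate-labelled array, profound 1 and profound 2 by 0.037, 0.008 and -0.003 against control. These shifts are far below the robust SDs, so its 60 single-gene differences were bound to count as unmoved. The 4 counts unchanged at 2-fold were 0 at 1.5-fold and could not rise. No paired analysis was possible because each group has 1 array. Dim signal limits TLR6 and leaves TLR7, TLR8 and LY96 without a usable difference.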

Other observations

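Other pattern receptors were measured beside the Toll-like receptors. Of 10 such genes 8 were tested, and 0 were at 1.5-fold from control in any array, where 1.46%, 6.79% and 2.4% of all tested genes were in the moderate-labelled array, profound 1 and profound 2. NLRP3, the inflammasome sensor, read 8.07 in control, 8.03 in the moderate-labelled array, 8.28 in profound 1 and 8.37 in profound 2. IFIH1, a cytosolic sensor of double-stranded RNA, differed most, with 4.96, 4.90, 5.43 and 4.90 in the same order. The cytosolic DNA sensor gene CGAS stayed within 7.79 to 7.94, and its partner STING1 read 7.42, 7.46, 7.76 and 7.39. CLEC7A, the beta-glucan receptor Dectin-1, and AIM2 were below the table median throughout. Of 6 other receptor genes that signal through MYD88, only IL1RAP, the shared subunit of interleukin-1 family receptors, was above it (5.97, 5.80, 6.20 and 6.06). IL1R1, IL18R1, IL18RAP, IL1RL1 and IL1RL2 were below it in all 4 arrays.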
